A study of Mus musculus with 2 samples.

Results

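A set of 10 genes that mark the position of a hepatocyte in the liver lobule, none of them a cytochrome P450, was followed through 2 single-cell libraries of perfused mouse liver. The list was fixed by name, and all 10 genes were found among the 31053 genes of the count table. Slc1a2, Lect2, Rgn, Gulo and Axin2 are the pericentral landmarks, and Hal, Sds, Pigr, Hsd17b13 and Ctsc the periportal ones. The control library came from LaptTA;WT liver, which carries the tetracycline transactivator under the liver-restricted LAP promoter and no inducible transgene. The tetYAP 4W library came from LaptTA; tetYAP liver, which carries the same transactivator and a tetracycline-controlled, constitutively active YAP (the Col1A1-YAP S127A transgene), after doxycycline food was withdrawn at 4 weeks of age to induce YAP for 4 weeks. Both libraries were made from liver cells released by perfusion of C57BL/6 animals.

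Blood enters the lobule at the portal vein and leaves at the central vein, and hepatocytes along that path divide their metabolic work, with urea and glucose production and amino acid breakdown on the portal side and glutamine synthesis and drug metabolism on the central side. Wnt ligands from the endothelium of the central vein keep the pericentral programme on through beta-catenin and TCF factors. Among the pericentral genes, Slc1a2 encodes a glutamate transporter, Lect2 a secreted liver protein, Rgn (regucalcin) and Gulo the enzymes of consecutive steps of vitamin C synthesis, and Axin2 is a feedback inhibitor of Wnt signalling that Wnt itself induces. Among the periportal genes, Hal and Sds start the breakdown of histidine and serine, Pigr carries immunoglobulin A towards the bile, Hsd17b13 is a lipid droplet protein and Ctsc a lysosomal protease that is also made by myeloid cells.

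The upstream windows of Lect2, Hal and Hsd17b13 are shown because each holds CTTTGA, the core letters of a TCF/LEF site, on one strand or the other, in a pericentral gene and in a pair of periportal ones. RefSeq promoters on GRCm38.p6 were found for 7 of the 10 members, and the part before the start of transcription is printed 5′ to 3′ on the strand of the gene, with CTTTGA or its reverse complement TCAAAG in capitals. The windows lie at chr13:56548560-56548788 on the minus strand for Lect2, chr10:93488518-93488767 on the plus strand for Hal and chr5:103977389-103977638 on the minus strand for Hsd17b13.
Lect2: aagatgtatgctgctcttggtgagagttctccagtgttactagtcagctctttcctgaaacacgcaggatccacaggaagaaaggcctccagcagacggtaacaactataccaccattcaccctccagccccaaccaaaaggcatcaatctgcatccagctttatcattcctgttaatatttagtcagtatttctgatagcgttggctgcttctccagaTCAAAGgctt
Hal: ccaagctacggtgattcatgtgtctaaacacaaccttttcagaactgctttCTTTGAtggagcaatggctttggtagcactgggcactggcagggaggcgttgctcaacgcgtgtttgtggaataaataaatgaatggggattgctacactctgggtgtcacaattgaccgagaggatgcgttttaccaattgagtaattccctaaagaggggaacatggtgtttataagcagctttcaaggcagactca
Hsd17b13: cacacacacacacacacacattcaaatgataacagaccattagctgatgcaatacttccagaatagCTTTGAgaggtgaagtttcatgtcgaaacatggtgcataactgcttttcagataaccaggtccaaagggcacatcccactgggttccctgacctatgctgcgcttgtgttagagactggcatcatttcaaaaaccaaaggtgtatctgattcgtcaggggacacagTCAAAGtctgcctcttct
The match began 199 bases before the start site in Hal, and 184 and 18 bases before it in Hsd17b13; the Lect2 window is printed up to the annotated gene and its match lies close to that end. CTTTGA was present on either strand in 13.8% of 32851 promoters of this length, and in 4 of the 7 member promoters, the other being Slc1a2, whose window lies inside the gene. GGAATG, the core of a TEAD site and so of the factors that carry YAP to DNA, was in 12.6% of promoters and in Lect2 alone of the members. CAAAGTCCA, a form of the HNF4A site, was in 0.384% of promoters and in no member window. A match describes letters, and it did not separate the pericentral from the periportal members.

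The table holds 4513 barcodes, 2989 of the control with a median of 3117 unique molecular identifiers (UMIs, each standing for 1 captured transcript) and 1524 of tetYAP 4W with a median of 4150. No barcode sequence was shared between them. The libraries differ in sex as well as genotype, with 3 against 4859 UMIs of Xist and 716 against 0 of 4 Y-linked genes, and these cannot be told apart; Rgn lies on the X chromosome. By markers of liver cell types, 2687 control barcodes (89.9%) and 824 of tetYAP 4W (54.1%) were hepatocyte-like, in clusters each made of 1 library. That name rests mainly on the absence of other cells' markers: the median sum of hepatocyte markers in the control was 328 in hepatocyte-like barcodes and also 328 in those of the other named classes, and in tetYAP 4W it was 359 and 282. Mitochondrial transcripts took a median of 28.2% of the UMIs of hepatocyte-like control barcodes and 55.5% in tetYAP 4W. The doublet caller marked only 9 and 0 barcodes. Whether it worked on these data was not tested, and doublets may remain. With 1 library per group, and the number of animals behind it not given in the sources used here, no test between groups was possible; barcodes are not replicates, and every interval below is a 95% interval that covers counting error only.

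The landmark transcripts were also counted in immune, endothelial and other non-hepatocyte barcodes. In the control, 4 of the 10, Rgn, Gulo, Sds and Pigr, were counted about as often per barcode there as in hepatocyte-like barcodes. Rgn, the most abundant pericentral member, had 2.08 UMIs per hepatocyte-like control barcode (2.03 to 2.14) and 1.96 (1.72 to 2.22) per barcode of the other named classes. Pigr, the most abundant periportal member, had 1.34 (1.29 to 1.38) against 1.44 (1.23 to 1.66), and Sds 0.299 (0.279 to 0.321) against 0.31 (0.22 to 0.423). These cells should lack the transcripts, so their counts are the background level beside which the hepatocyte-like values stand; free RNA and doublets as its source were not tested. Hal was counted more often per barcode in the other classes, at 0.651 (0.518 to 0.808) against 0.481 (0.455 to 0.508), whereas Lect2 and Hsd17b13 reached 66.5% and 73.9% of their hepatocyte-like level there, and Slc1a2 reached 240% on few UMIs. In tetYAP 4W the other classes were further below, with 80.9% of the hepatocyte-like level of Rgn, 83.4% of Gulo, 68.2% of Pigr and 60.2% of Sds, but 102% of Hal.

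Ctsc had its highest level per barcode in macrophage-like barcodes, among the classes of at least 4 barcodes. It had 1.98 UMIs per macrophage-like barcode in the control and 3.70 in tetYAP 4W, against 0.0897 (0.0787 to 0.102) and 0.246 (0.214 to 0.283) per hepatocyte-like barcode. The macrophage-like share of barcodes was 1.41% of the control and 18.1% of tetYAP 4W, and the part of RNA from these cells in the hepatocyte-like level of Ctsc was not tested. Axin2 was at the edge of detection, with 18 UMIs over all hepatocyte-like control barcodes and 7 over those of tetYAP 4W, and Slc1a2 gave 71 and 42.

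**Figure D1:**
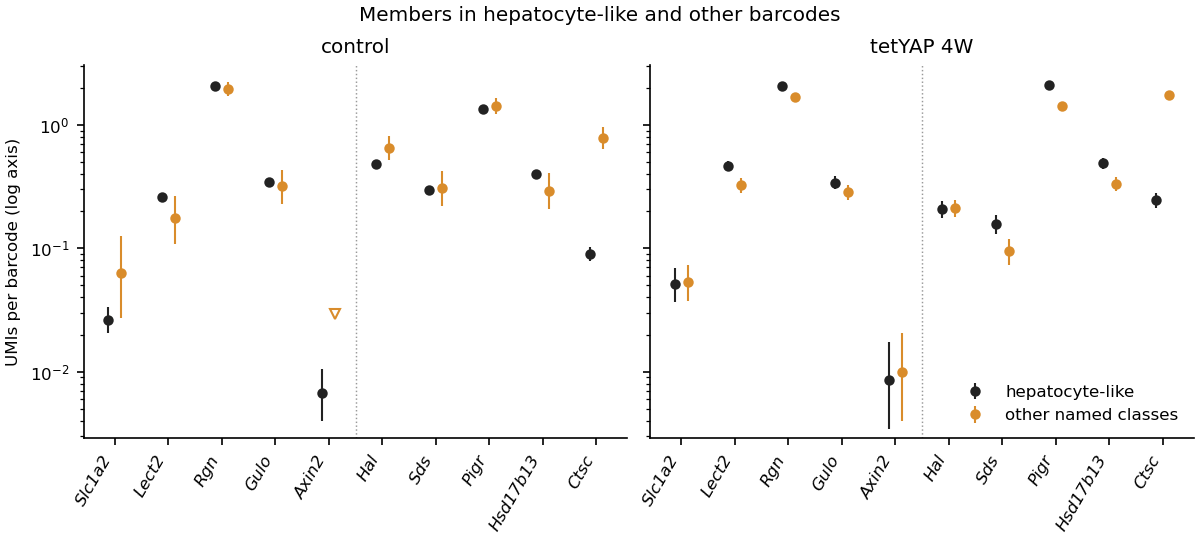
UMIs per barcode of the 10 members on a log axis, in hepatocyte-like barcodes and in barcodes of the other named classes, for each library; bars are 95% Poisson intervals and the open triangle is the upper limit of a gene at 0. Rgn sits at 2.08 and 1.96 in the control, nearly level, while Ctsc lies far higher in the other classes.

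Malat1, a long non-coding RNA that stays in the nucleus, was used to split the hepatocyte-like barcodes within each library at the value that best separates its distribution into a low and a high part. In the control this fell at 1.70 Malat1 UMIs per 10000 and separated, but for 1 barcode, those without a Malat1 UMI (507 low) from those with one (2180 high). In tetYAP 4W it fell at 15.1 per 10000, giving 146 high and 678 low barcodes, so that the word high covers different barcodes in the libraries.

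Over these sets the landmark genes hardly varied together. Co-variation was measured as Spearman's rho of UMIs per 10000 over barcodes, for pairs whose genes both had a UMI in at least 5% of the barcodes. In Malat1-high control barcodes the median rho was 0.034 for pericentral pairs, 0.018 for periportal pairs and -0.008 for pairs across the sides. In Malat1-low control barcodes the medians were 0.023, 0.029 and 0.017. Pairs within a side therefore exceeded pairs across sides by 0.030 and 0.006, and in counts this sparse such values are no finding. In tetYAP 4W the pericentral pairs reached 0.101 in Malat1-high and 0.089 in Malat1-low barcodes, with periportal pairs at 0.026 and 0.046 and pairs across sides at -0.035 and -0.003. Slc1a2, on 10 UMIs, passed the 5% limit in the Malat1-high barcodes of tetYAP 4W but not in their Malat1-low barcodes or in the control sets.

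The split by Malat1 followed Neat1, another nuclear RNA, far more closely in tetYAP 4W than in the control. Neat1 was at 1133 CPM in Malat1-high and 51.4 in Malat1-low barcodes of tetYAP 4W, but at 78.5 and 44.4 in the control. The hepatocyte-like cluster of each library with the highest level of Neat1 was taken as well, a choice made after the values were seen. It held 120 control barcodes, with Malat1 at 4567 CPM against 576 in the other 2567 hepatocyte-like barcodes, and 78 barcodes of tetYAP 4W, at 14064 against 831. Of these, 94 and 68 were Malat1-high. In the control the high level was carried by part of the cluster: its median was 4 Malat1 UMIs per barcode against 2 outside, 26 of its barcodes had none, and 58 passed the Malat1 limit of tetYAP 4W. The control cluster carried fewer hepatocyte marker UMIs than the other barcodes, a median of 166 against 329. Clustering again without the 10 members and the axis genes described below returned 121 and 78 barcodes, of which 120 and 78 were the same.

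In the nuclear cluster of the control, the members varied together within their side and apart across sides. All 3 pericentral pairs that could be measured had a rho above 0, with a median of 0.245, as had all 10 periportal pairs, with a median of 0.182, whereas only 1 of 15 pairs across sides was above 0 and their median was -0.097. Rgn with Gulo reached 0.294 and Rgn with Lect2 0.245. Among the periportal genes, Hal with Hsd17b13 reached 0.321 and Hal with Pigr 0.205. The lowest pair was Rgn with Pigr, at -0.255, followed by Gulo with Hal at -0.175, and Lect2 with Sds, at 0.076, was the pair across sides above 0. Of 28 member pairs, 12 had an absolute rho of at least 0.15, whereas 19.6% of all gene pairs in this cluster did. In the other control barcodes the medians were 0.017, 0.015 and 0.004, and 0 of 28 member pairs reached 0.15, as did 0.00288% of all pairs. The clusters differ in size, 120 against 2567 barcodes, which by itself widens the spread of rho.

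The spread of single genes over barcodes stood out for Rgn in the control. The variance of its counts was 4.78 times that of random sampling at the depth of each barcode in the control nuclear cluster, above 91.5% of the 355 genes that could be compared there. Outside that cluster it was 1.13 times, a small excess that was nevertheless above 98.1% of the genes compared, with Hal and Pigr, at 1.09 and 1.08, above 93.8% and 93.1%. In the nuclear cluster, where the median of the genes compared was 1.38 times, Pigr was at 1.62, above 67.6% of them. The other members had too few UMIs there to enter that comparison. Lect2, Gulo, Hal, Sds, Hsd17b13 and Ctsc were between 0.97 and 1.33 times. Slc1a2 was at 3.24 times on 10 UMIs, with a highest count of 7 in a barcode. Rgn had at least 1 UMI in 65.8% of the nuclear and 85.9% of the other control barcodes, with a highest count of 20 and 18. In tetYAP 4W the order was the reverse, with Rgn at 1.38 times in the nuclear cluster, above 30% of genes, and 2.14 times outside it, above 93.1%. Sds had the highest value of the members in the tetYAP 4W nuclear cluster, 2.73 times. It rested on 47 UMIs, too few for the comparison with other genes, with a highest count of 7 in a barcode.

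The nuclear cluster of tetYAP 4W did not show the division by side. Its pairs had median rho values of 0.089 within the pericentral side, 0.059 within the periportal side and 0.063 across sides, with 4 of 6, 6 of 10 and 12 of 20 above 0. Hal with Sds, the amino acid catabolic pair, had the highest value at 0.304, and Gulo ran against both, at -0.253 with Hal and -0.242 with Sds. Rgn with Gulo stood at -0.007, compared with 0.294 in the control, while Rgn with Hsd17b13 stood at 0.209, compared with -0.157. Of 36 pairs, 11 reached an absolute rho of 0.15, against 21% of all pairs in the cluster. In the other tetYAP 4W barcodes the medians were 0.084, 0.038 and 0.010, and 0 of 28 pairs reached 0.15, against 0.881% of all pairs.

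**Figure D2:**
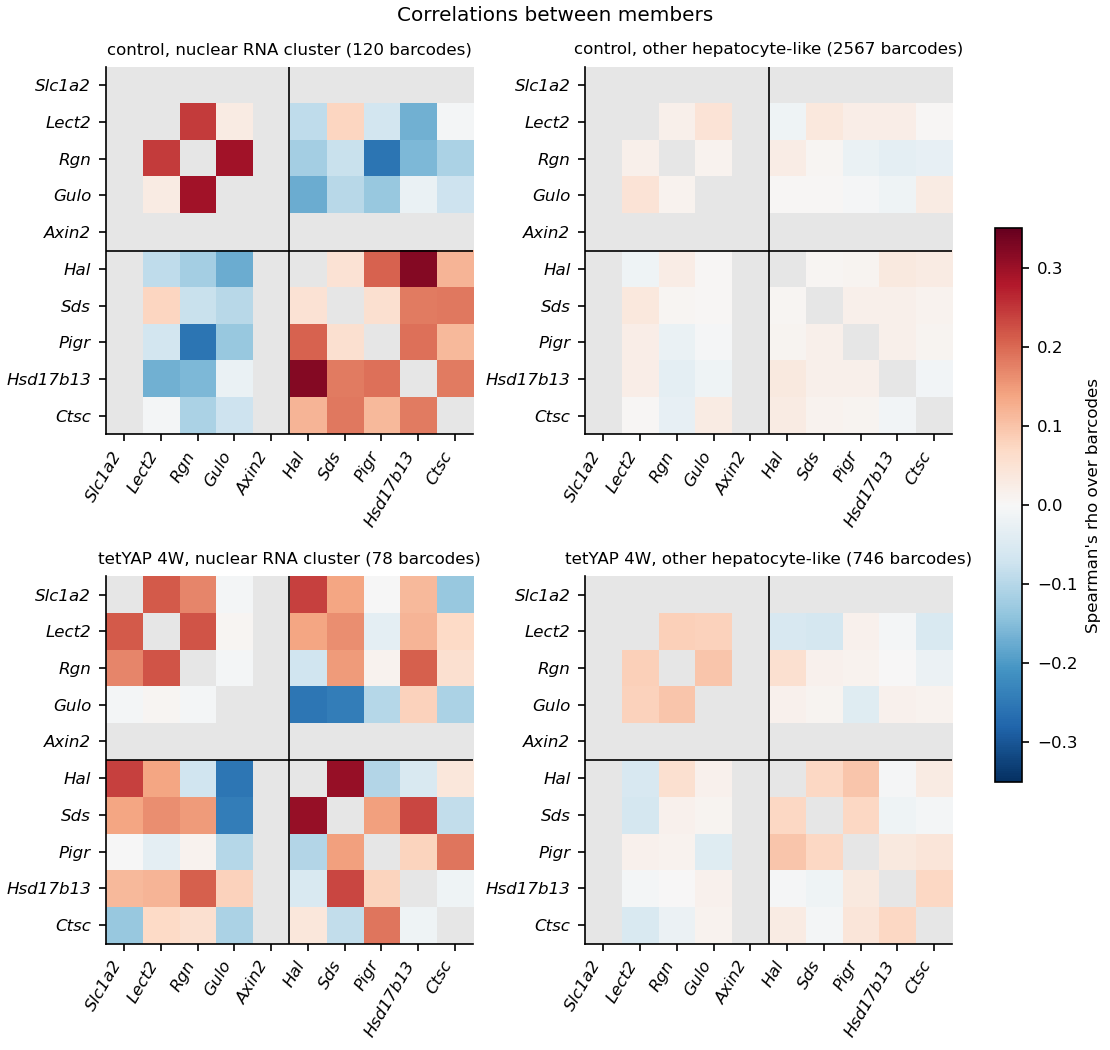
Spearman's rho between members over barcodes of the nuclear clusters and of the other hepatocyte-like barcodes in each library, as coloured squares from blue (below 0) to red (above 0), with lines between the pericentral and the periportal members and grey for pairs under the 5% limit. In the control nuclear cluster the same-side squares are red, and 14 of the 15 pairs across sides are below 0.

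To place barcodes along the lobule without using the members, an axis was drawn from 13 other pericentral genes, led by Cyp2e1, and 15 other periportal genes, among them Cyp2f2. The position of a barcode was the percent of its axis UMIs that were pericentral, for barcodes with at least 10 axis UMIs, and the barcodes were cut into 3 bins of equal size, called periportal, middle and pericentral. In the control nuclear cluster 105 barcodes were placed, and the position had an SD of 24.3 percentage points, where sampling of the same UMIs alone would give 9.62. In the other control barcodes these values were 9.78 and 9.29, so that the axis held little beyond sampling there. The nuclear cluster of tetYAP 4W, with 76 barcodes, had an SD of 16.3 against 9.54, and the other tetYAP 4W barcodes 12.5 against 11.1.

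The pericentral members rose towards the pericentral bin of the control nuclear cluster. Rgn went from 169 CPM (104 to 262) in the periportal bin through 572 to 1701 CPM (1464 to 1965) in the pericentral bin, on 20, 70 and 184 UMIs, a log2 ratio of 3.33 (2.66 to 4.07). At least 1 Rgn UMI was present in 40% of the 35 periportal barcodes and in 85.7% of the 35 pericentral ones. Gulo, which acts after Rgn in vitamin C synthesis, had 3, 18 and 30 UMIs, a log2 ratio of 3.45 (1.76 to 5.80). Lect2 had 3, 6 and 14 UMIs, a ratio of 2.35 (0.51 to 4.79). The order of the 3 bins was thus the same for these genes. Slc1a2 had 9 UMIs in 3 pericentral barcodes and 0 in the periportal bin, and Axin2 had 1 and 0, both below the 10 UMIs set for a call.

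Periportal members went the other way. Hal fell from 322 CPM (228 to 442) in the periportal to 74.0 CPM (31.9 to 146) in the pericentral bin, on 38 and 8 UMIs, a log2 ratio of -2.12 (-3.43 to -1.001). Sds went from 13 UMIs to 2, a ratio of -2.58 (-5.77 to -0.43), and Hsd17b13 from 20 to 3, a ratio of -2.61 (-5.01 to -0.86). Ctsc had 14 UMIs in the periportal and 0 in the pericentral bin, which with a floor of 3 UMIs in the bin at 0 is at least 2.10 lower on the log2 scale. Pigr had the shallowest gradient, with 77 against 34 UMIs and a ratio of -1.05 (-1.68 to -0.45).

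All 8 members with at least 10 UMIs in the pericentral and periportal bins together were thus past a log2 ratio of 1 in the direction of their side, where 23.1% of all counted genes were past it in either direction. Turned towards each member's own side, the median ratio was 2.46. The bins also differed in mitochondrial share, with a median of 25.7% in the pericentral and 36.4% in the periportal bin. With barcodes of at most 30% mitochondrial UMIs alone, 7 of 7 counted members were past 1 on their own side, with a median of 3.16.

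Outside the nuclear cluster few members followed the axis in the control. There 1 of 10 members was past a log2 ratio of 1, Axin2 with 2 and 8 UMIs in the pericentral and periportal bins and so against its side, where 5.69% of genes were past it, and the median towards the own side was 0.04. In the sets made by Malat1, those past 1 were 0 of 9 members in Malat1-high control barcodes against 6.4% of genes, with a median of 0.10, and 1 of 9 in Malat1-low against 10.5%, with a median of 0.14. The nearest to a gradient were Ctsc in Malat1-high barcodes, with 48 and 90 UMIs and a ratio of -0.92 (-1.45 to -0.40), and Slc1a2 in Malat1-low barcodes, with 14 and 4 UMIs and a ratio of 1.87 (0.20 to 3.93), both on their own side. For Rgn, with 1631 and 1421 UMIs in the pericentral and periportal bins of Malat1-high control barcodes, the ratio was 0.19 (0.09 to 0.29). Barcodes of that set were placed on a median of 29 axis UMIs, with a position SD of 10.3 against 9.23 from sampling, and the part of depth in the missing gradient was not tested. At a stricter Malat1 limit, that of tetYAP 4W applied to the control, 151 control barcodes were high and the median rose to 0.80.

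**Figure D3:**
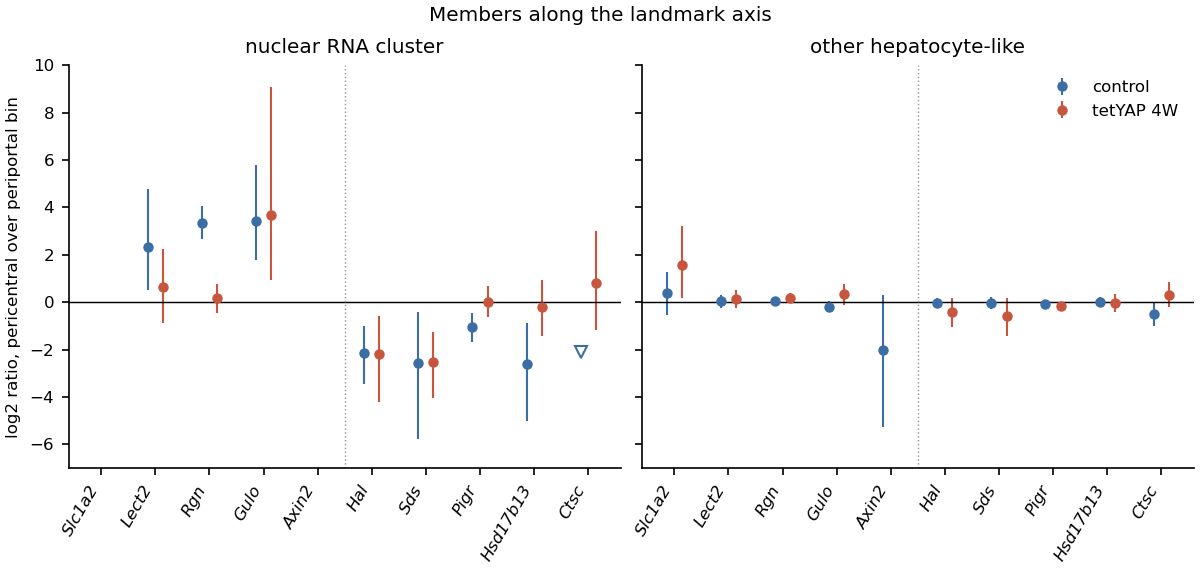
Log2 ratio of each member between the pericentral and the periportal bin of the axis, in the nuclear clusters and in the other hepatocyte-like barcodes of each library, for members with at least 10 UMIs; bars are exact 95% intervals and an open triangle is a bound. In the control nuclear cluster Rgn, Gulo and Lect2 lie above 0 and the 5 periportal members below it.

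In the nuclear cluster of tetYAP 4W, 3 members followed the axis. Gulo had 13 UMIs in the pericentral and 1 in the periportal bin, a log2 ratio of 3.69 (0.95 to 9.10). Hal had 4 against 18, a ratio of -2.18 (-4.20 to -0.58), and Sds 6 against 34, a ratio of -2.51 (-4.06 to -1.24). These were the same genes that ran against each other in the correlations of this cluster. For these 3 genes the ratios of the libraries differed by 0.24 (-3.15 to 3.64), -0.06 (-1.97 to 1.85) and 0.06 (-2.42 to 2.55), intervals too wide to show that they were alike.

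Rgn, Pigr and Hsd17b13 had log2 ratios near 0 along the axis in tetYAP 4W. Rgn was at 457, 440 and 512 CPM in the periportal, middle and pericentral bins, on 46, 46 and 52 UMIs, a log2 ratio of 0.17 (-0.43 to 0.77). Its gradient was smaller than in the control by 3.16 on the log2 scale (2.28 to 4.04). Pigr had 41, 41 and 42 UMIs, a ratio of 0.02, and the libraries differed by 1.08 (0.23 to 1.93). For Hsd17b13, with 15, 19 and 13 UMIs, the ratio was -0.22 and the difference 2.39 (0.34 to 4.45). The intervals of these 3 differences leave out 0, but they compare 1 library with 1 library. The share of all genes that differed in this way was not measured. The bins were not the same positions, with cuts at 23.1% and 48.5% in the control and 32.7% and 47.6% in tetYAP 4W. Between the nuclear clusters, 7 of 15 periportal axis genes had intervals below 0 and 1 above. Of 11 counted pericentral axis genes, 5 were below and 2 above. The part of the axis genes and cuts in these differences was not tested. Lect2 had 7, 11 and 11 UMIs, a ratio of 0.64, with a difference whose interval runs from -3.97 to 0.55, and Ctsc 4, 8 and 7 UMIs.

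Of the 8 counted members 3 were past a ratio of 1 on their side in tetYAP 4W, against 20.3% of genes, and the median towards the own side was 0.43. The mitochondrial share was 36.6% in the pericentral and 26.9% in the periportal bin, the reverse of the control. Among the 34 barcodes with at most 30% mitochondrial UMIs the median was 1.24, with 3 of 5 counted members past 1. Rgn stayed at 0.10 (-0.81 to 0.99) there, and Hsd17b13 was at -1.24 (-3.34 to 0.52) on 4 and 11 UMIs and Pigr at -0.90 (-2.08 to 0.18) on 11 and 24, intervals that also hold the values of the whole cluster. In the other tetYAP 4W barcodes 1 of 9 members was past 1 against 11.5% of genes, in Malat1-high barcodes 3 of 8 against 22.4%, and in Malat1-low barcodes 1 of 9 against 11.8%.

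**Figure D4:**
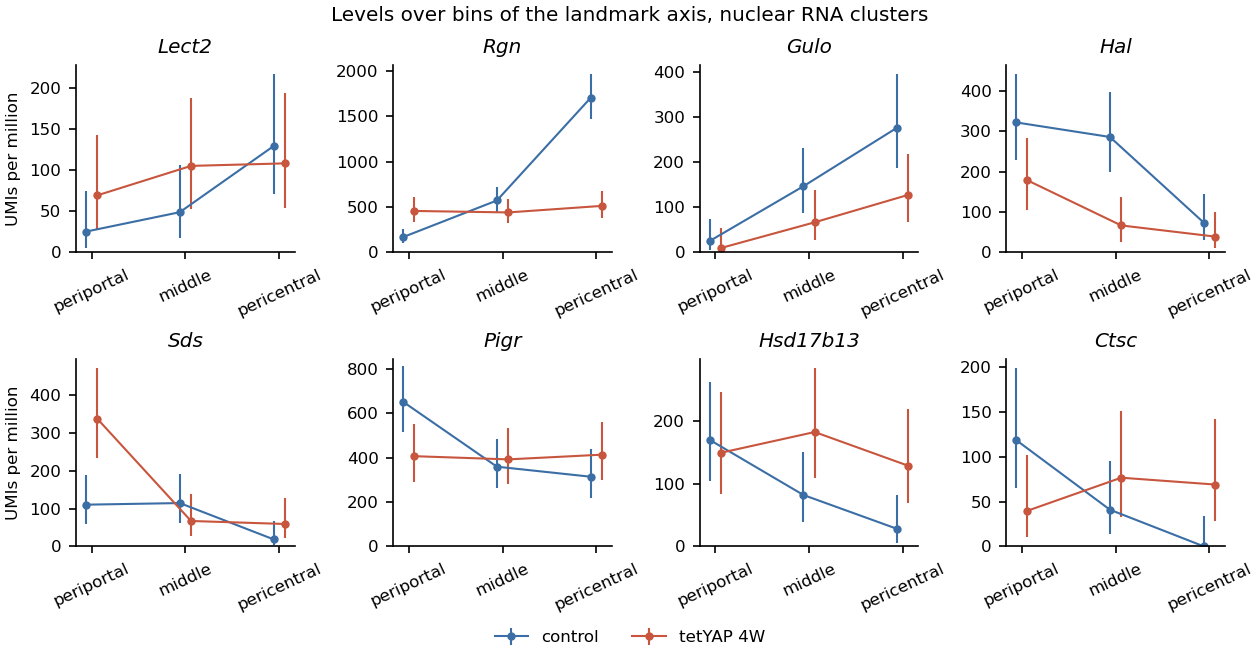
CPM of the 8 members with enough UMIs over the periportal, middle and pericentral bins of the axis in the nuclear clusters, with 95% Poisson intervals, control and tetYAP 4W. Rgn climbs from 169 to 1701 CPM in the control and stays between 440 and 512 CPM in tetYAP 4W, while Gulo, Hal and Sds slope the same way in both.

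Between the libraries as a whole, the amino acid catabolic pair was lower in tetYAP 4W and Ctsc higher. Over hepatocyte-like barcodes Hal went from 154 CPM (1292 UMIs) in the control to 49.3 CPM (171 UMIs), a log2 ratio of -1.64 (-1.88 to -1.41). Sds went from 95.8 to 37.2 CPM, a ratio of -1.36 (-1.64 to -1.09). A lower level was not particular to this pair, since 14 of the 15 periportal axis genes had intervals below 0, with a median ratio of -0.86. Of the 13 pericentral axis genes, 5 had intervals below 0 and 6 above. Ctsc went from 28.7 to 58.6 CPM, a ratio of 1.03 (0.75 to 1.30), beside the larger number of macrophage-like barcodes given above. Hepatocyte-like barcodes of tetYAP 4W also held 7.4 UMIs of other classes' markers per barcode against 0.854 in the control, and 12.0 in 1 cluster of 260. Without that cluster Ctsc stood at 0.87 (0.56 to 1.19), no longer past 1, Hal at -1.81 and Sds at -1.38, and the part of other cells' RNA in these ratios was not tested. These were the members past a log2 ratio of 1, 3 of 10, where 34.6% of all genes counted were past it in either direction. With barcodes of at most 30% mitochondrial UMIs, which left 34 nuclear and 77 other barcodes of tetYAP 4W, Hal had a ratio of -0.49 (-0.96 to -0.05), Sds 0.24 (-0.23 to 0.68) and Ctsc 1.51 (0.90 to 2.08). The lower Sds level was not seen under this limit, which kept 34 of 78 nuclear but 77 of 746 other barcodes of tetYAP 4W. In the control it kept 57 of 120 nuclear and 1600 of 2567 other barcodes. Sds was at 149.9 CPM in the tetYAP 4W nuclear cluster and 26.0 outside it, and the part of this mix was not tested. Over all barcodes of every class Ctsc reached 2.52.

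The pericentral members were closer to the control. Rgn went from 666 to 496 CPM, a log2 ratio of -0.43 (-0.50 to -0.35), and Gulo from 109 to 81.1 CPM, also -0.43 (-0.63 to -0.24). Lect2 was at 84.0 and 111 CPM, a ratio of 0.40 (0.22 to 0.58), and Slc1a2 at 8.46 and 12.1 CPM, with an interval from -0.07 to 1.09. Of the periportal genes, Pigr was at 428 and 499.8 CPM, a ratio of 0.22, and Hsd17b13 at 127 and 117 CPM, with an interval from -0.29 to 0.04. Scaling by the total without mitochondrial and the 50 most abundant genes moved every ratio up by 0.47, which took Rgn to 0.04, Gulo to 0.03, Hal to -1.17 and Sds to -0.90, no longer past 1, and the share of higher calls over all genes from 57.2% to 84.3%. The mitochondrial limit took Rgn to 0.35 (0.19 to 0.51), Gulo to 0.23 (-0.20 to 0.64) and Lect2 to 1.03 (0.65 to 1.39), and over all barcodes Pigr stood at -0.06. Without the cluster richest in other cells' markers Rgn was at -0.77, Gulo at -0.64 and Lect2 at 0.12 (-0.10 to 0.33).

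Sds was higher in the nuclear cluster than in the other barcodes of tetYAP 4W, with a log2 ratio of nuclear over other of 2.55. Hal was also past 1 there, at 1.12 (0.50 to 1.69). Over all genes, 51.7% were past 1 in either direction, and the median was 1.03. Scaling without mitochondrial and the 50 most abundant genes lowers each of these ratios by 0.73, which leaves Sds past 1 but not Hal. In the control the ratio of Sds was -0.29 (-0.88 to 0.25). Sds was at 78.8 CPM (29 UMIs) in the control and 149.9 CPM (47 UMIs) in the tetYAP 4W nuclear cluster. The log2 ratio, tetYAP 4W over control, was 0.93 (0.23 to 1.65). That interval leaves out the spread of Sds over barcodes of the tetYAP 4W nuclear cluster, 2.73 times that of random sampling. In the other barcodes Sds was at 96.5 and 26.0 CPM, a ratio of -1.89 (-2.24 to -1.56). Hsd17b13 also changed sign between these comparisons, with ratios of 0.70 (0.03 to 1.38) and -0.18 (-0.36 to -0.009). Hal was lower in tetYAP 4W in the nuclear clusters and outside them, with ratios of -1.25 (-1.91 to -0.64) and -1.75 (-2.01 to -1.50). Gulo and Rgn were lower in the nuclear cluster of tetYAP 4W as well, with ratios of -1.13 (-1.93 to -0.38) and -0.68 (-0.98 to -0.39). Hal and Gulo were the members past 1 in the nuclear clusters, 2 of the 9 counted, against 33.9% of genes. With TMM factors, which move the nuclear ratios down by 0.24, the interval of Sds ran from -0.01 to 1.41.

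**Figure D5:**
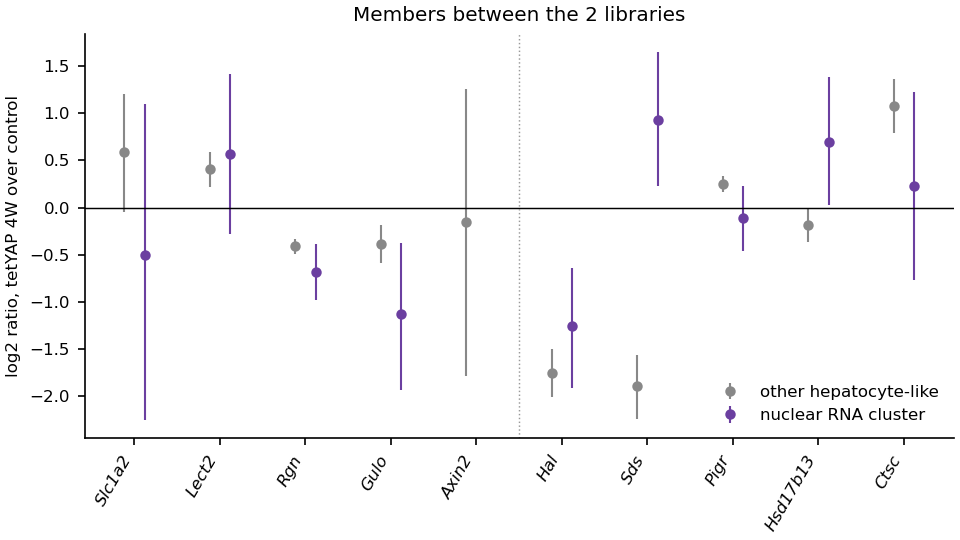
Log2 ratio of each member, tetYAP 4W over control, in the nuclear clusters and in the other hepatocyte-like barcodes, with exact 95% intervals; members under 10 UMIs are left out. Hal lies below -1 in both, and Sds lies above 0 in the nuclear clusters and below -1 in the others.

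Malat1-high and Malat1-low barcodes of the control had like levels of the members. None of the 10 was past a log2 ratio of 1, against 8.74% of genes, and the ratios ran from -0.94 for Slc1a2 (21 and 50 UMIs) to 0.20 for Sds. In tetYAP 4W, Sds was at 27.8 CPM in Malat1-low and 88.4 CPM in Malat1-high barcodes, a log2 ratio of 1.67 (1.12 to 2.20), and it was the only one of the 9 counted members past 1, where 52.1% of genes were. The median ratio over all genes was 1.01. Scaling without mitochondrial and the 50 most abundant genes lowers each ratio by 0.74, after which Sds is no longer past 1. In the same comparison Hal had a ratio of 0.66 (0.11 to 1.19), Rgn 0.05 and Pigr -0.13. Mitochondrial transcripts took 36.6% of UMIs in the Malat1-high and 57.8% in the Malat1-low barcodes of tetYAP 4W, and their part in these ratios was not tested.

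The 15 other genes of the Wnt pathway were sparse. Over hepatocyte-like barcodes 14 were counted, of which 1 was past a log2 ratio of 1 upwards in tetYAP 4W and 2 downwards, beside the 34.6% of all genes past it in either direction. Nkd1, a Wnt antagonist, had 4 and 9 UMIs, and Lgr5, a receptor of R-spondins, 20 and 3, with an interval from -3.85 to 0.29. Lgr4, a related receptor, was at 53.7 and 24.8 CPM, a ratio of -1.11 (-1.46 to -0.78). In the control nuclear cluster the Wnt targets Lgr5, Tbx3, Notum and Znrf3 had 5, 5, 4 and 3 UMIs in the pericentral and 0 in the periportal bin, each below the minimum for a call; these were picked after their values were seen. Of the 5 Wnt genes counted there, Ctnnb1, which encodes beta-catenin, had 9 and 20 UMIs, a ratio of -1.03 (-2.35 to 0.17), and Lgr4 had 5 and 9.

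By rule, the genes most like each member were taken over the Malat1-high control barcodes, where no rho passed 0.135, that of Rgn with Prdx1, among 1140 genes. In the control nuclear cluster the likeness was higher, over 120 barcodes and 1228 genes that share library and depth. The Malat1-high set held 2180 barcodes, and fewer barcodes by themselves widen the spread of rho and so raise its highest value. The part of set size in these values was not tested. Rgn was most like Mup17 (0.522), Cyp1a2 (0.505) and Cyp2e1 (0.432). Hal and Pigr were each most like Cyp2f2, at 0.413 and 0.434, and Gulo was most like Slco1b2, at 0.458. Of these, Cyp1a2, Cyp2e1, Cyp2f2 and Slco1b2 are axis genes on the side of the member they go with. Slc1a2 went with Oat, another axis gene (0.354), whereas the genes most like 4 other members were not axis genes, with Bst2 for Lect2 (0.480), Esd for Sds (0.360), Khk for Hsd17b13 (0.366) and Mrpl52 for Ctsc (0.385).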

How the data were processed

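Livers were perfused, and single cells were captured with a droplet 3' kit. The authors deposited raw counts, whole numbers of UMIs per gene and barcode, in 1 table for both libraries; the submitters' processing notes name Cell Ranger, Seurat 3 and mm10. Per the methods of the study, the number of barcodes was brought down to 3000 for either condition and those over 7500 UMIs were left out. The deposited counts were not filtered further. Groups follow the genotype labels.

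Counts were normalised to 10000 UMIs, and 2000 variable genes, 20 principal components, 15 neighbours and Leiden clustering at resolution 0.8 (scanpy 1.11.5, leidenalg 0.10.2) gave the clusters. A cluster was named hepatocyte-like from at least 3 hepatocyte markers with at least 10 UMIs and fewer than 3 markers of another class at 3-fold; other names needed 3 markers at 3-fold. Scrublet marked 0.301% of the control barcodes and 0 of tetYAP 4W. Ratios are of summed UMIs over total UMIs, with exact conditional binomial intervals; levels have Poisson intervals (scipy 1.17.1). A gene was called at an absolute log2 ratio of at least 1 with at least 10 UMIs. Where 1 sum was 0, a floor of 3 UMIs gave a bound; no ratio was given where both sums were at most 3.

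The genes named are the 10 members, the 3 genes most like each over Malat1-high control barcodes with a UMI in at least 20% of them, and the 3 most abundant genes of each axis list; genes most like the members in the nuclear cluster, and single Wnt genes, were chosen after their values were seen. The members, lists and axis genes were chosen with earlier results of these data known. The nuclear clusters, a common Malat1 limit, clustering without members and axis genes, and leaving out the tetYAP 4W cluster richest in other cells' markers were added after seeing the data. Other alternatives were the Malat1 split, the correlation measure, thinning to 2000 UMIs, a mitochondrial limit of 30%, the detection limit, clustering resolutions of 0.4 and 1.2, all barcodes, cuts of the axis, scaling (edgeR 4.0.16, factors only), equal weights and the floor. The scripts were tested on simulated data.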

Additional observations from a re-analysis of the deposited data

Results flagged for a closer look

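In the nuclear clusters, 3 members had a gradient along the axis that differed between the libraries, judged by the 95% interval of the difference of the log2 ratios, which covers counting error and not the difference between animals. For Lect2, Gulo, Hal and Sds the interval held 0. The share of all genes with such a difference was not measured, so the 3 are no finding about these members as such. For Rgn the difference, tetYAP 4W minus control, was -3.16 (-4.04 to -2.28), with ratios of 0.17 and 3.33. Pigr differed by 1.08 (0.23 to 1.93), with ratios of 0.02 and -1.05. Hsd17b13 differed by 2.39 (0.34 to 4.45), with ratios of -0.22 and -2.61. The cuts between the bins and the levels of the axis genes also differed between the libraries, as given above. The mitochondrial share ran in opposite directions along the axis in the libraries, with medians of 25.7% and 36.4% in the pericentral and periportal bins of the control and 36.6% and 26.9% in those of tetYAP 4W, and its part in these differences was not tested. In barcodes with at most 30% mitochondrial UMIs, the tetYAP 4W ratio of Rgn was 0.10, that of Pigr -0.90 and that of Hsd17b13 -1.24.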

How the results depend on the processing

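Over 24 medians and differences of medians, 187 of 196 values under an alternative lay within the 95% counting interval of the reported value (for rho, the interval its number of barcodes gives), which is wide for these medians. In the nuclear cluster of the control the excess of same-side over cross-side rho ran from 0.214 to 0.398 (reported 0.279), and the median ratio along the axis from 1.65 to 3.19; in that of tetYAP 4W they ran from -0.025 to 0.035 and from 0.24 to 1.24. Thinning to 2000 UMIs kept 83 of the 120 control nuclear barcodes. The axis median of Malat1-high control barcodes went from 0.10 to 0.80 with 1 Malat1 limit for both libraries, to 1.16 with a limit of 5 on the log2 scale, which left 30 barcodes on the axis, and to 0.67 with Cyp2e1 and Cyp2f2 as the axis, which kept 144. That of Malat1-low control barcodes went from 0.14 to 2.77 with that pair, which kept 23; the pair gave no value in the Malat1-high and nuclear sets of tetYAP 4W, where it kept 2. The median of the periportal members, tetYAP 4W over control, went from -0.12 to 0.34 when scaled without mitochondrial and the 50 most abundant genes, to 0.21 with at most 30% mitochondrial UMIs and to -0.37 over all barcodes. The same scaling took the median of Malat1-high over Malat1-low in tetYAP 4W to -0.54 and that of nuclear over other barcodes to -0.66. The causes were not tested.

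Among 184 values of single members, 6 changed sign where the reported interval left out 0. A further 23 left the counting interval of the reported value. Changes of sign in members whose reported interval held 0 were not counted apart. The 6 values, all tetYAP 4W over control, included Rgn at 0.040 with that scaling and 0.35 with the mitochondrial limit, and Gulo at 0.033 and 0.23. The others were Sds at 0.24 with the mitochondrial limit and Pigr at -0.062 over all barcodes. The direction of Sds over all hepatocyte-like barcodes thus depends on which barcodes enter. No replicate could be left out and no paired analysis was possible because each group has 1 library.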
